A study of Mus musculus with 4 samples.

Results

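Potassium channel genes were taken as the 89 genes, of 22180 with a symbol of their own on the array, whose symbol has the form Kcn, family letters and a number. They were represented by 96 rows of the deposited table, and for each of the 7 genes with several the row of highest mean was used. The set held 87 protein-coding genes, pore-forming and accessory subunits alike, and 2 long noncoding RNAs that share the name stem, Kcnq1ot1 and Kcnd3os. Another 4 rows carried a Kcn symbol together with the symbol of a second gene and were not used, which left the leak channel Kcnk3 and the inward rectifier Kcnj13 without a value.

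The arrays measured total RNA of primary vascular smooth muscle cells (VSMCs) from the thoracic aorta, freed of adventitia, digested with collagenase and kept in culture with serum for 5 days. All mice were Mmp14 fl/fl and Apoe -/- and had eaten a Western diet for 3 months, so the controls also lacked the lipoprotein carrier Apoe and carried the floxed Mmp14 alleles. The 2 control arrays were SM22α-Cre(−) and the 2 knockout arrays SM22α-Cre(+), with Cre under the promoter of the smooth muscle gene SM22α (Tagln) removing Mmp14, which encodes the membrane-anchored collagenase MT1-MMP. Cre from this promoter acts in smooth muscle, so other cells carried along in the cultures need not have lost Mmp14. Per the series' design text the mice came as 2 separate pairs, but the titles do not say which arrays form a pair, and the age of the mice is not given in the sources used here. The comparison of knockout with control asked which transcripts depend on MT1-MMP in these cells.

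Potassium channels let potassium leave the cell and so hold the membrane potential of smooth muscle negative, which limits calcium entry through voltage-gated calcium channels and favours relaxation. Voltage-gated, calcium-activated, inwardly rectifying and tandem-pore leak channels share this task in arteries, and their levels are known to shift when smooth muscle cells leave the contractile state and proliferate in culture. Macrophages and endothelial cells use partly different channels, among them Kcnn4, Kcna3, Kcnk6 and Kcnk13 in myeloid cells and Kcnn3, Kcnn4 and Kcnj2 in endothelium.

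No potassium channel gene passed the test over all genes, but Kcnn4, Kcnk13 and Kcnab2 were higher in both knockout arrays than in both control arrays by 2.77-fold, 1.65-fold and 1.67-fold. Of these Kcnab2 reached the level for testing only through the knockout arrays. Kcnk6 was 1.45-fold higher, with a wider spread. The other 20 members above the median level of the table had log2 differences between -0.23 and 0.29. All 12 macrophage markers on a list chosen with earlier results of these data known also had a higher mean in the knockout arrays. None of these markers passed the test over all genes, and their values stand beside these channels further on.

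Across the whole series the array medians lay between 3.01 and 3.05, and Pearson's r across rows, which are not independent replicates, was 0.974 to 0.982 between arrays. Mmp14 itself read 8.71 and 9.05 in control cells against 8.27 and 8.19 in knockout cells, a log2 difference of -0.65 (SE 0.17, limma adjusted p = 0.319). The position of its probes relative to the deleted exons and the share of cells that had lost Mmp14 were not tested. All 10 smooth muscle markers were above the median level, with a mean over the list of 6.74 and 6.59 in control cells against 6.86 and 6.48 in knockout cells. With 2 arrays in each group an exact two-sided permutation test cannot give a p below 0.333, and the number of arrays limited the precision.

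The upstream sequences of Kcnn4 and Kcnk13 are shown because these 2 members had the smallest p-values of the set and a single listed start site each. Both are the 250 bases before the start site, from RefSeq (GRCm38.p6), both on the plus strand, Kcnn4 at chr7:24370013-24370262 and Kcnk13 at chr12:99964249-99964498. Capitals mark the letters CACGTG, an E-box.
Kcnn4: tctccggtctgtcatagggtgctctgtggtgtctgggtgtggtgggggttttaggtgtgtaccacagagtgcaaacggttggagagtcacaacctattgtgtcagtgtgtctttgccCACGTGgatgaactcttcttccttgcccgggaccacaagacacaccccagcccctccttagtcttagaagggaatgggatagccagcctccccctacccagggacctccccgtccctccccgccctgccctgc
Kcnk13: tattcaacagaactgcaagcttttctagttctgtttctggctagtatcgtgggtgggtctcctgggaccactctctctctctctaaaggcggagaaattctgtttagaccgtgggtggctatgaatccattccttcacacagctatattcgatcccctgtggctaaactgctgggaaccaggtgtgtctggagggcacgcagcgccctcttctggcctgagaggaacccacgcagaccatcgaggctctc
The letters searched on both strands were GAGGAAGT (a PU.1-type element), TGACTCA (an AP-1 element) and CACGTG, and no overlap between them occurred. The Kcnn4 window held CACGTG, 133 to 128 bases before the start, and neither of the others, and the Kcnk13 window and the windows of the 3 listed starts of Kcnab2 held none. Of 32851 windows of this length in the RefSeq table, 2.44% held GAGGAAGT, 4.46% TGACTCA and 6.02% CACGTG. A match in letters is a description and no evidence of binding, and 69 of the 89 members had an entry in that table.

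The median row mean of the whole table, 3.02 on the log2 scale, served as the level above which a gene was tested, and 24 of the 89 members (27.0%) reached it, against 12550 of 22180 genes (56.6%). No background signal was used here, so a value below this level is not a measure of absence. The members above it were Kcna2, Kcna3, Kcna4, Kcna6, Kcnc4 and Kcnd1 among the Kv1 to Kv4 pores, Kcnh2 of the EAG-type pores, Kcns3 of the silent modifiers, and Kcnab1, Kcnab2, Kcne1l, Kcne4 and Kcnip3 of the accessory subunits. They also included the inward rectifiers Kcnj14 and Kcnj15 and the leak channels Kcnk1, Kcnk4, Kcnk6, Kcnk13 and Kcnk18. The rest were Kcnmb1, Kcnn1, Kcnn3 and Kcnn4 of the calcium- or sodium-activated group. Of the 24, 18 were above the level in all 4 arrays, and 3, Kcnab2, Kcne4 and Kcnh2, had a control mean below it and passed only through the knockout arrays. Just inside the level lay Kcne4, Kcnh2 and Kcnab1, with means of 3.04, 3.05 and 3.10. Just outside it lay Kcnh3, Kcnh8 and Kcnmb3, at 3.01, 2.98 and 2.93.

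**Figure D1:**
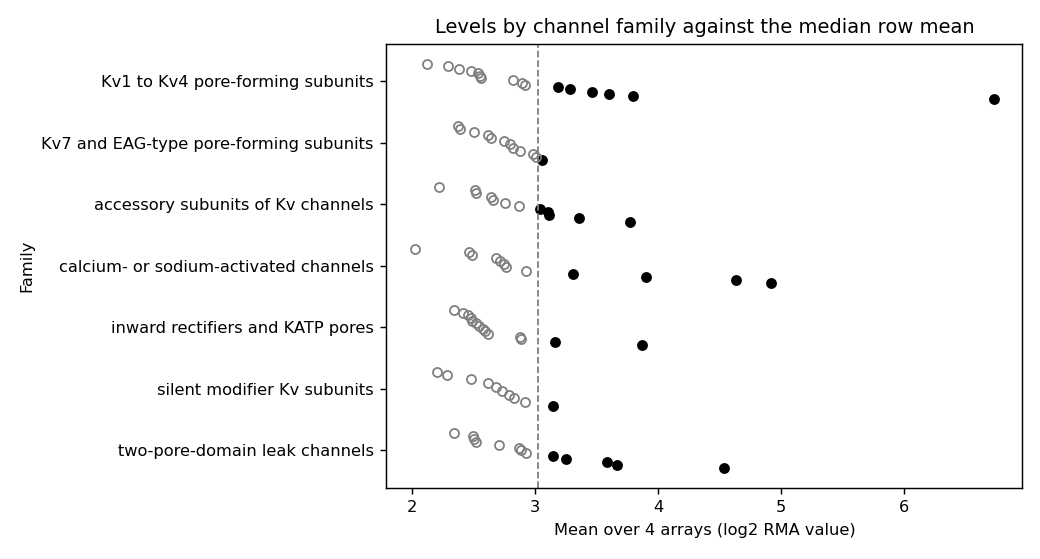
Mean log2 RMA value over the 4 arrays (x axis) of each of the 89 genes, by channel family (y axis), with filled points at or above the median row mean of 3.02 (dashed line) and open points below it. Each gene is to be read against the line only, since probes of different genes are not on a common scale; 24 genes lie at or above it.

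Among the 24 tested members limma called 0 at an adjusted p under 0.05, where it called 0% of all 12550 genes. At an unadjusted p under 0.05 there were 3 members higher and 0 lower in the knockouts, against 4.89% and 6.78% of all genes tested. The knockout arrays lay wholly above the control arrays for 7 members and wholly below for 3, against 16.7% and 27.5% of all genes, and 44.3% in both directions together. By mean, 13 members were higher, against 41.7% of all genes tested, 10 lower and 1, Kcnn3, had a difference of 0, and either rescaling of the arrays gave 12 higher and 12 lower. The median difference was 0.030 for the 24 members and -0.052 for all genes tested, and the median absolute difference 0.18 for both. These counts include the 3 members that passed through the knockout group alone and are a description. A difference of at least 0.5 in size was reached by 4 members, all higher, and by 13.6% of all genes tested, in either direction.

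**Figure D2:**
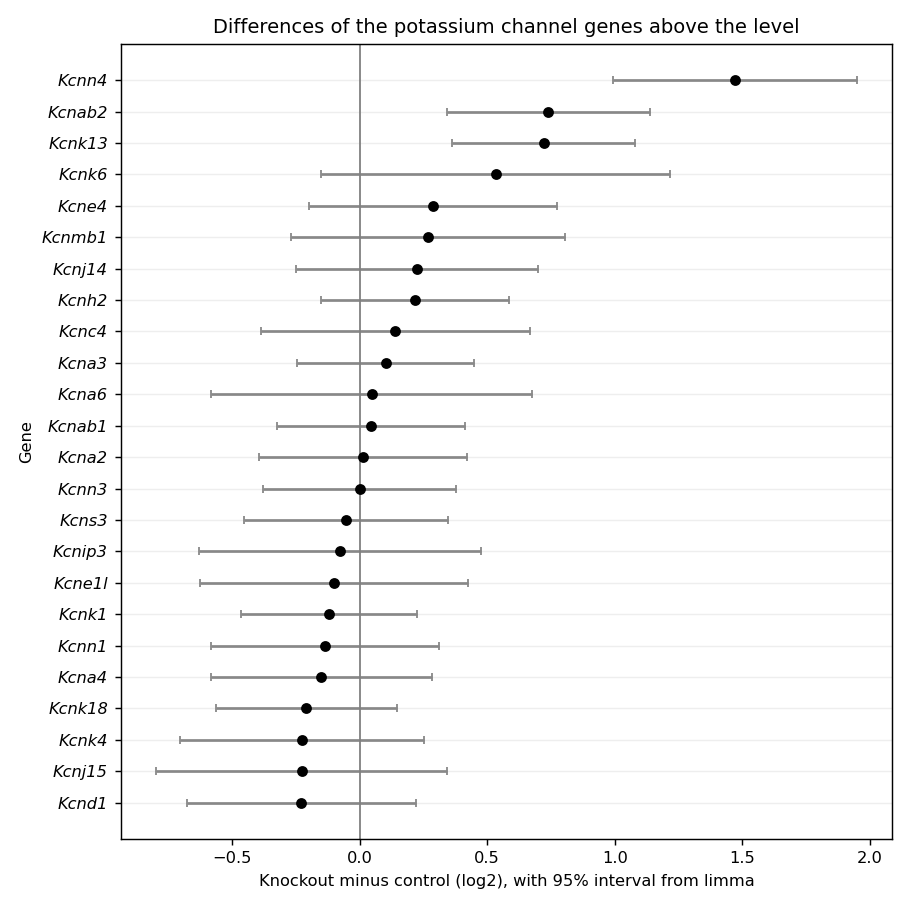
Knockout minus control on the log2 scale (x axis) for the 24 potassium channel genes above the level (y axis), with 95% intervals from limma on 2 arrays per group. The intervals of Kcnn4, Kcnab2 and Kcnk13 lie above 0, without adjustment over genes, and the others include 0. Kcnab2, Kcne4 and Kcnh2 passed the filter only through the knockout arrays.

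Calcium-activated channels open when intracellular calcium rises. Kcnn4, the intermediate-conductance channel found in proliferating smooth muscle, endothelium and leukocytes, read 4.04 and 4.33 in control cells against 5.79 and 5.52 in knockout cells. Both knockout arrays were high and the groups lay far apart relative to their spread. The means were 4.18 ± 0.20 and 5.65 ± 0.19 (SD, n = 2 each), which is a log2 difference of 1.47 (SE 0.18, 95% interval 0.99 to 1.95). The unadjusted p was 0.000628 and the adjusted p 0.155 (limma), and 66 of 12550 genes tested (0.526%), Kcnn4 included, had an upward difference of that size or larger. The difference ran from 1.33 to 1.62 when single arrays were left out.

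Kcnmb1, the smooth muscle β1 subunit that raises the calcium sensitivity of the large-conductance BK channel, read 4.28 and 4.72 in control cells against 4.88 and 4.66 in knockout cells, with overlap. Its difference was 0.27 (SE 0.21, limma adjusted p = 0.661), and it was 0.051 without control replicate 1. Kcnma1, the pore of the BK channel, was below the level, at 3.00 and 2.58 against 2.62 and 2.79, and its second row read 2.55 and 2.64 against 2.76 and 2.74. The rows differed in sign (-0.083 and 0.16). Kcnn3, a small-conductance channel known from endothelium, read 3.87 and 3.93 in control cells against 3.81 and 3.99 in knockout cells, with equal means (95% interval -0.38 to 0.38). Kcnn1, another small-conductance channel, differed by -0.14 with overlap. The other 8 genes of the calcium- or sodium-activated group, Kcnma1 included, were below the level.

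Leak channels with tandem pore domains carry background potassium current. Kcnk13, a halothane-inhibited leak channel known from microglia and macrophages, read 3.34 and 3.26 in control cells against 3.98 and 4.07 in knockout cells, with the knockout arrays close together and above both controls. The difference was 0.72 (SE 0.14, 95% interval 0.36 to 1.08, limma unadjusted p = 0.00385, adjusted p = 0.230). Kcnk6, a weakly rectifying leak channel present in macrophages and in vessels, read 4.51 and 4.03 in control cells against 4.55 and 5.05 in knockout cells. Knockout replicate 1 lay just above control replicate 1, and the difference of 0.53 (SE 0.26, limma adjusted p = 0.509) was 0.28 without knockout replicate 2 and 0.78 without knockout replicate 1.

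Kcnk18, a calcium-regulated leak channel of sensory neurons, read 3.30 and 3.40 in control cells against 3.17 and 3.12 in knockout cells, without overlap, a difference of -0.21 (SE 0.14, limma adjusted p = 0.602). Kcnk1, a weakly rectifying leak channel, read 3.21 and 3.20 in control cells against 3.07 and 3.10 in knockout cells, without overlap, a difference of -0.12 (SE 0.13, limma adjusted p = 0.771). These differences were small beside their intervals, both of which included 0. Kcnk4, a mechanically gated leak channel, differed by -0.22 with overlap. Kcnk2, a stretch-sensitive leak channel, was below the level, at 2.73 and 2.64 against 2.53 and 2.90.

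Accessory subunits assemble with Kv pores and set their gating and surface level. Kcnab2, a cytosolic β subunit of Kv1 channels, read 2.83 and 2.65 in control cells against 3.40 and 3.56 in knockout cells. Both control arrays were below the level and both knockout arrays above it, so the gene passed the filter only through the group where it was high. The difference was 0.74, and in the fit of all 22180 genes, without that filter, the unadjusted p was 0.00297 and the adjusted p 0.272 (limma). Kcnab1, the paralogue known from smooth muscle, read 3.01 and 3.15 in control cells against 3.08 and 3.16 in knockout cells, with overlap and a difference of 0.046 that changed sign without control replicate 1. Kcnab3, the remaining β subunit of that family, was below the level by its mean. Its control replicate 1 read 3.42, apart from 2.60 in control replicate 2 and from 2.48 and 2.51 in the knockouts. The second row of Kcnab3 read 2.91 and 2.72 in control cells against 2.70 and 2.58 in knockout cells. That is a difference of -0.18 without overlap, also below the level.

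Kcne4, a single-span subunit that modifies Kv1 and Kv7 channels in arteries, read 3.06 and 2.73 in control cells against 3.31 and 3.06 in knockout cells. Knockout replicate 2 lay less than 0.01 above control replicate 1, and the difference of 0.29 was 0.13 without control replicate 2 and 0.45 without control replicate 1. The control mean of Kcne4 was below the level, so it passed the filter only through the knockout arrays. In the fit of all 22180 genes, without that filter, its adjusted p was 0.666 (limma). Kcne1l, a related single-span subunit, and Kcnip3, a calcium-binding partner of Kv4 channels, differed by -0.10 and -0.076 with overlap. Beside Kcnab3, the other 6 accessory subunits were below the level, with means of 2.21 to 2.87.

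**Figure D3:**
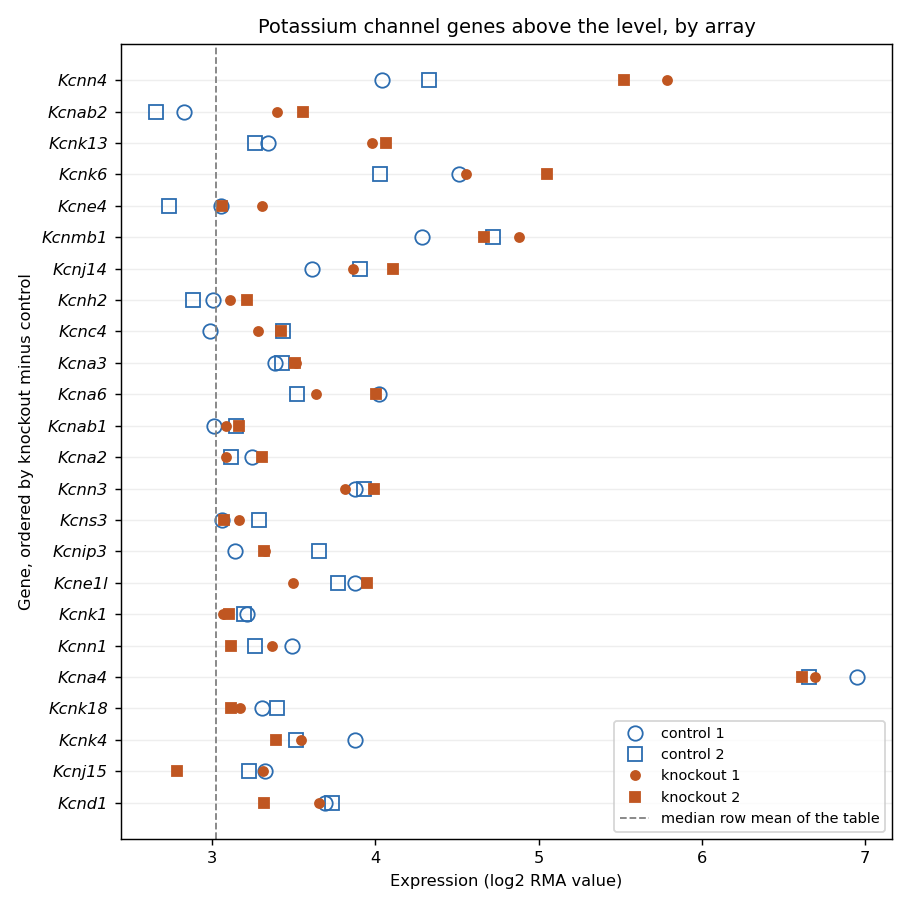
Log2 RMA values (x axis) of the 24 potassium channel genes above the level (y axis), with open blue symbols for the 2 control arrays, filled orange symbols for the 2 knockout arrays and a dashed line at 3.02, the median row mean. In the top 3 genes both knockout arrays lie to the right of both control arrays, and in most of the others the symbols of the groups are mixed or adjacent.

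Voltage-gated pores of the Kv1 to Kv4 families repolarise the membrane. Kcna3, a channel of leukocytes and of proliferating smooth muscle, read 3.39 and 3.43 in control cells against 3.51 and 3.51 in knockout cells, without overlap. The difference was 0.10 (SE 0.13, 95% interval -0.24 to 0.45, limma adjusted p = 0.805). Kcnd1, a Kv4 channel of transient currents, read 3.69 and 3.73 in control cells against 3.65 and 3.32 in knockout cells, without overlap. Its difference of -0.23 (SE 0.17, limma adjusted p = 0.654) was -0.06 without knockout replicate 2.

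Kcna2, a Kv1 channel present in arterial muscle, read 3.24 and 3.12 in control cells against 3.08 and 3.30 in knockout cells, with overlap. Its difference of 0.014 turned negative under either rescaling of the arrays. Kcna4, a Kv1 channel with fast inactivation, had 2 rows that disagreed in level. The kept row read 6.95 and 6.65 in control cells against 6.69 and 6.61 in knockout cells, a difference of -0.15 (SE 0.17, limma adjusted p = 0.771). The other row read 2.85 and 2.66 in control cells against 2.84 and 3.20 in knockout cells, a difference of 0.27, and was below the level. Kcna6 and Kcnc4 differed by 0.048 and 0.14 with overlap. Kcna5, a main Kv1 pore of contractile vascular muscle, was below the level, at 2.34 and 2.71 against 2.37 and 2.71.

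Of the Kv7 and EAG-type pores, 1 of 12 genes was above the level, Kcnh2, the hERG-type channel that carries the rapid delayed rectifier current of the heart. It read 3.01 and 2.88 in control cells against 3.11 and 3.21 in knockout cells, without overlap, a difference of 0.22. The control mean of Kcnh2 was below the level, so it passed the filter only through the knockout arrays. In the fit of all 22180 genes, without that filter, its adjusted p was 0.644 (limma). Kcnq1 and Kcnq5, Kv7 pores of arterial muscle, were below the level. Kcnq1 read 2.39 and 2.42 in control cells against 2.52 and 2.22 in knockout cells, and Kcnq5 read 2.83 and 2.57 against 2.82 and 2.78. Both sets of values overlapped. Kcnh6, another EAG-type pore below the level, read 2.94 and 2.70 in control cells against 2.50 and 2.43 in knockout cells. Of the 10 silent modifiers, which alter Kv2 currents and form no channel alone, Kcns3 was above the level and differed by -0.054 with overlap.

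Inward rectifiers conduct best near the resting potential and include the pores of the ATP-sensitive channel. Of 14 genes, Kcnj14 and Kcnj15 were above the level and differed by 0.23 and -0.23, each with overlap. Kcnj8, the pore of the vascular ATP-sensitive channel, read 2.58 and 2.66 in control cells against 2.66 and 2.58 in knockout cells, below the level. Kcnj11, the pore of the ATP-sensitive channel of the pancreatic β cell, read 2.48 and 2.43 against 2.51 and 2.49. The groups overlapped for Kcnj8, and Kcnj11 differed by 0.043. Kcnj2, the strong inward rectifier of endothelium, macrophages and small arteries, read 2.62 and 2.70 in control cells against 2.84 and 3.36 in knockout cells. Only knockout replicate 2 was above the level, and the difference of 0.44 was 0.17 without it.

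The 65 members below the level had means of 2.02 to 3.01 and differences of -0.52 to 0.44, with 35 higher and 30 lower. Their median difference was 0.012, against 0.013 for the 9630 genes below the level as a whole. In 56 of them all 4 arrays were below the level. The groups did not overlap in 25 of the 65 (38.5%), 12 higher and 13 lower, against 34.7% of all genes below the level. Kcnab3 was the only one with a difference above 0.5 in size, and in its kept row control replicate 1 stood apart from the other arrays. When all 22180 genes were tested, Kcnn4, Kcnk13, Kcnab2 and Kcnh6 had an unadjusted p under 0.05 in limma, the last as lower. These were 4 of 89 members, against 2125 of 22180 genes. The smallest adjusted p of the members in that fit was 0.142 (limma).

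**Figure D4:**
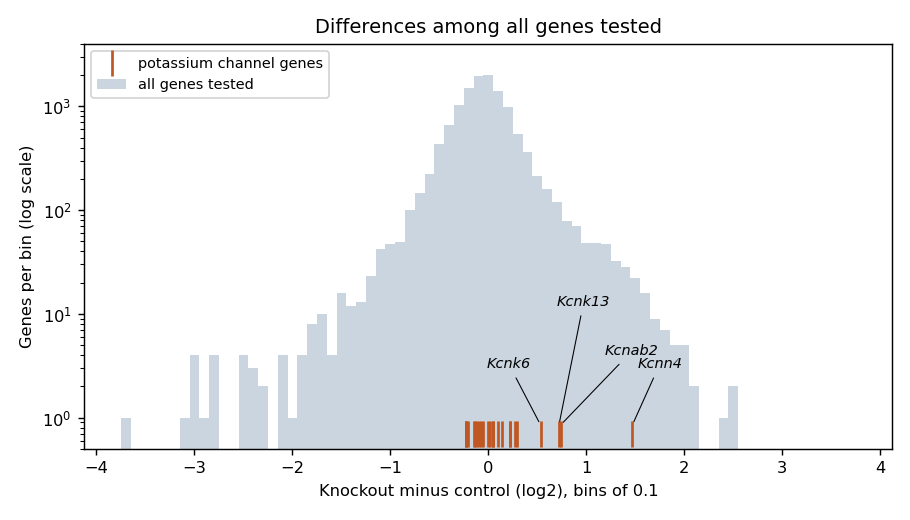
Number of genes per bin of 0.1 (y axis, log scale) by knockout minus control on the log2 scale (x axis), for all 12550 genes tested (grey bars), with an orange tick for each of the 24 potassium channel genes. The tick of Kcnn4 at 1.47 stands among the 0.526% of genes with the largest upward differences, and 20 ticks lie between -0.23 and 0.29.

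No marker of another cell type passed the test over all genes, so the marker lists are given by their values and counts. The lists were chosen with earlier results of these data known, so their counts beside those of all genes are a description. All 12 macrophage markers were higher in the knockouts, 11 without overlap, against 41.7% and 16.7% of all genes tested. Their median difference was 1.47. The mean over that list was 6.79 and 6.81 in control cells against 7.93 and 8.25 in knockout cells, and its summed log2 level was 81.5 and 81.7 against 95.1 and 99.0. Every one of these markers was above the level in the mean of all arrays. The differences of Ptprc, which encodes the leukocyte antigen CD45, and Adgre1, which encodes F4/80, were 1.75 and 1.74. Of the 4 channels named above from myeloid cells, Kcnn4, Kcnk13 and Kcnk6 had differences of 1.47, 0.72 and 0.53 and Kcna3 of 0.10. Kcnj2, described above as a channel of macrophages too, was below the level and had a difference of 0.44. The part of macrophage transcripts in the values of these channels and of Kcnab2 was not tested, and in RNA from whole cultures more cells of a type and more RNA per cell cannot be told apart.

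Of 12 endothelial markers, 8 were lower in the knockouts without overlap, the untested Tek among them, against 27.5% of all genes tested. A higher mean was found for 3. The mean over the list was 5.17 and 4.81 in control cells against 3.92 and 4.02 in knockout cells. Its summed log2 level was 62.0 and 57.7 against 47.0 and 48.2, and Tek and Cldn5 were below the level. Of the 3 channels named above from endothelium, Kcnn3 had a difference of 0, Kcnn4 of 1.47 and Kcnj2, below the level, of 0.44. The part of endothelial transcripts in the values of these 3 channels was not tested. The smooth muscle list had a median difference of -0.0055, with 4 of 10 markers higher and summed levels of 67.4 and 65.9 against 68.6 and 64.8. The fibroblast list had 5 of 7 measured markers higher (median 0.21), the neural and Schwann list 4 of 8 (median -0.010), the adipocyte list 4 of 6 (median 0.029) and the lymphocyte list 3 of 4 (median 0.21). All lymphocyte markers and 5 of 6 adipocyte markers were below the level.

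**Figure D5:**
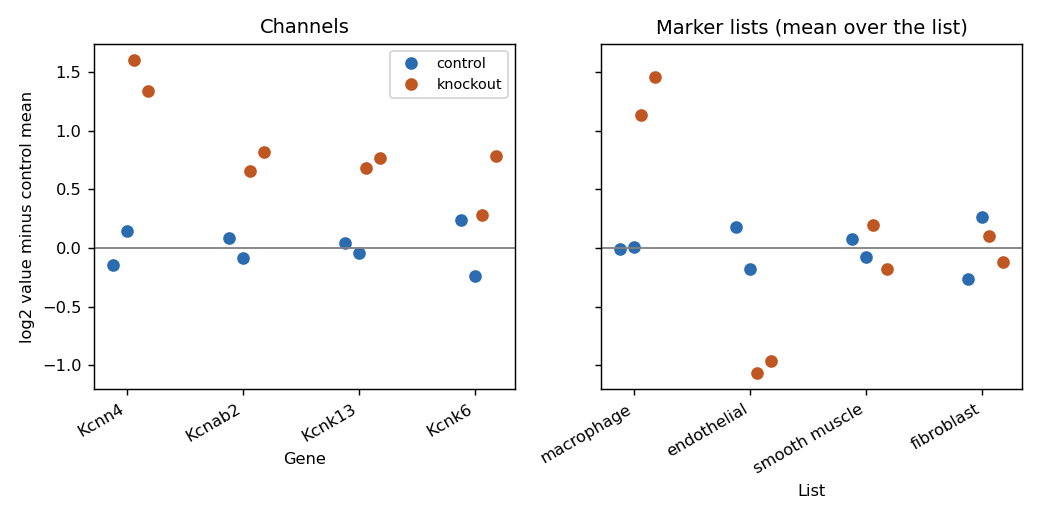
Log2 values of 4 potassium channel genes (left) and means over 4 marker lists (right), each minus its own control mean (y axis), with 1 point for each of the 2 control (blue) and 2 knockout (orange) arrays. Both knockout arrays are above both controls for the 4 channels and the macrophage list and below them for the endothelial list, and the groups are mixed for the smooth muscle and fibroblast lists. The 4 channels are the tested members with the largest upward differences and no overlap, so their direction was fixed by that choice. Kcna3, with a difference of 0.10, is not shown, and Kcnab2 passed the filter only through the knockout arrays.

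Genes that work beside potassium channels in setting membrane potential and calcium entry were on a list of 33, of which 27 were measured and 17 tested. Limma called 0 of the 17. At an unadjusted p under 0.05 there were 4 lower and 0 higher, against 6.78% and 4.89% of all genes tested, and the median difference was -0.099. The 4 include Ano1, which passed the filter only through the control arrays, so the count is a description. Abcc9, the sulfonylurea receptor that pairs with Kcnj8 in the vascular ATP-sensitive channel, had means of 3.52 ± 0.44 in control and 3.90 ± 0.14 in knockout cells (SD, n = 2 each), with overlap and a difference of 0.38 (limma adjusted p = 0.603). Abcc8, the pancreatic and neuronal counterpart, was below the level and differed by 0.055.

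The 4 partners at an unadjusted p under 0.05 were also those with the largest differences and no overlap. Ano1, a calcium-activated chloride channel that depolarises smooth muscle, had means of 4.88 ± 0.28 in control and 2.74 ± 0.13 in knockout cells (SD, n = 2 each) and a difference of -2.14 (limma adjusted p = 0.137). Its knockout arrays, at 2.65 and 2.83, were below the level, so Ano1 passed the filter only through the group where it was high. Cav1, the caveolar scaffold protein abundant in endothelium and smooth muscle, differed by -1.10 (limma adjusted p = 0.252). Atp1b1, a subunit of the sodium and potassium pump, differed by -0.84 and Cacna2d1, an accessory subunit of voltage-gated calcium channels, by -0.76 (limma adjusted p = 0.414 and 0.273). Cacna1c, the pore of the L-type calcium channel, differed by -0.077 with overlap.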

How the data were processed

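The authors deposited log2 expression values per transcript cluster for 4 Mouse Gene ST arrays, background-corrected, normalised and summarised with RMA, per the submitters' processing notes. RNA was amplified from 10 ng, per the labels' protocols. Base 2 was inferred from their range, 1.17 to 12.4, and the genome build of the arrays is not given in the sources used here. Of 41345 rows, 23521 had 1 gene symbol in the platform annotation, 1814 several and 16010 none; all 89 members matched the RefSeq gene table by gene number. Genes with a mean under the median row mean were not tested. Knockout minus control was estimated by limma 3.58.1 in R 4.3.3 (lmFit, then eBayes), Benjamini-Hochberg adjusted over 12550 genes and called under 0.05; the fit was tested on simulated data. Since each array is another mouse and culture, p-values reflect both sources of spread together. Named were Mmp14, Tagln and Apoe, 17 measured channels with known vascular, endothelial or myeloid roles, up to 8 members per direction with the largest difference and no overlap, members at an unadjusted p under 0.05 and 3 on each side of the level. Tagln and Apoe differed by -0.0070 and -0.36 (limma adjusted p = 0.997 and 0.502). Other members were named after their values were seen. Members and lists were chosen with earlier results of these data known. Plots were drawn with matplotlib 3.10.9.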

Additional observations from a re-analysis of the deposited data

How the results depend on the processing

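The count of called potassium channel genes was 0, as was that of all genes, under every alternative run: the replicate block, no filter or a filter at the 75th percentile of row means, quantile normalisation repeated, median-centred arrays, rows of a gene averaged, eBayes with trend and robust estimation, and leaving out each array in turn. The smallest adjusted p of a member ran from 0.102 to 0.459, both for Kcnn4. Of all genes, 1465 had an unadjusted p under 0.05, and 975 without control replicate 1. The median difference of tested members, 0.030, was 0.66 with the stricter filter, which left 2 members. It was -0.0025 after quantile normalisation, -0.00089 after centring, and -0.011 to 0.11 when single arrays were left out. The partner median was -0.16 to -0.056 in those refits. The Kcna2 difference was -0.018 after quantile normalisation, -0.017 after centring and -0.096 to 0.12 when single arrays were left out, and that of Kcnab1 -0.022 to 0.11. Kcnn4, Kcnk13 and Kcnab2 stayed higher in all of these refits that tested them. Their groups did not overlap, so neither the block nor leaving out an array could reverse their direction. Kcnab2 passed the filter only through the knockout arrays. The title number as a replicate block gave a member median of 0.030 and a smallest member adjusted p of 0.124 (limma). The block was not used in the main fit because the titles do not say that a number marks a pair. Same-numbered arrays deviated with r = 0.045 over genes and crossed numbers with r = -0.045. With 2 arrays per group these values mirror each other, so they cannot show which arrays form a pair. Where 1 array remained in a group, its spread was taken to be that of the other group.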
